A study of Mus musculus with 40 samples.

Results

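The genes described here are interferon-stimulated and antigen presentation genes of mouse liver. They were taken from a list of 37 symbols. For each symbol, probe sets annotated to that gene alone were kept if their log2 signal was 4 or more on 3 or more arrays of a group, and the one with the highest mean over the 40 arrays stood for the gene. This left 33 genes of the 9695 genes tested. Of the other 4, Isg15 and Ifi44 had no probe set of their own among those annotated to a single gene, and Irf7 and Oasl2 stayed below the minimum.

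Interferons are secreted proteins that signal through cell surface receptors and Janus kinases to STAT and IRF transcription factors. These bind interferon-stimulated response elements (ISRE) and gamma-activated sites (GAS) and switch on genes that block viruses, mark proteins for destruction and load peptides onto major histocompatibility complex (MHC) class I molecules. In the liver, hepatocytes, Kupffer cells (the resident macrophages) and endothelial cells all carry such genes at a resting level, and the same genes rise together during infection or inflammation.

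Liver RNA of 40 male C57BL/6J mice, 12 weeks old and fed AIN-76A diet without ethoxyquin, was hybridized to Affymetrix whole-genome mouse expression arrays, 1 array a mouse. Wild-type (Wt) and Nrf2-null mice, the latter from an inbred line kept as Nrf2 heterozygotes, received 3 gavage treatments over 5 days and were killed 24 h after the last. The 5 treatments of each genotype were vehicle (Cremophor-EL, DMSO and PBS), 300 μmol/kg 3H-1,2-dithiole-3-thione (D3T), and 3, 10 or 30 μmol/kg of the synthetic triterpenoid CDDO-Im, with 4 mice a group. Both compounds are activators of Nrf2, the transcription factor that Keap1 holds in check. Numbers given to the animals place the D3T and 30 μmol/kg CDDO-Im mice in another range than the rest, so any difference in handling that follows those numbers cannot be told apart from treatment.

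Levels are log2 signals after the GCRMA normalization of the submitters, so a difference of 1 is a doubling, and levels are compared between mice for 1 gene but not between genes. A gene is called changed where limma's moderated test, 1 fit over all 10 groups, gave a Benjamini-Hochberg adjusted p under 0.05 over the 9695 genes. Probe sets for Nfe2l2, the gene of Nrf2, read from 10.77 to 11.75 in the 20 Wt mice and from 2.72 to 3.10 in the 20 Nrf2-null mice, as the labels state. The averages of 8 hepatocyte markers lay between 15.27 and 15.61 in all 40 mice. In RNA of whole liver, fewer cells of a type and less RNA per cell cannot be told apart.

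Short stretches of promoter are given for 6 of the genes described below, because they hold letters that match the ISRE. The window searched ran from 250 bases before to 50 bases after each start in RefSeq's annotation of build GRCm38.p6, and 30 of the 37 listed symbols had one. The letters searched, on both strands, were GAAA, any 2 bases and GAAA for ISRE, TTCNNNGAA for GAS, and TGACNNNGC for the antioxidant response element that Nrf2 binds. Capitals mark the ISRE letters, or their complement where they lie on the other strand, and each sequence reads 5′ to 3′ on the strand of its gene.
Ifit1, chr19:34640765-34640833, plus strand: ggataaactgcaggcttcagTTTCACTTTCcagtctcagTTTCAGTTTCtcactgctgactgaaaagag
Rsad2, chr12:26456543-26456592, minus strand: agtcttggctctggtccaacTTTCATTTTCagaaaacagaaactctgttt
Cxcl10, chr5:92349073-92349122, minus strand: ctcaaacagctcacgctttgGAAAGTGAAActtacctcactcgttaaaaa
Igtp, chr11:58199502-58199551, plus strand: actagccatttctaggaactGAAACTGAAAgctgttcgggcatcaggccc
Irgm1, chr11:48871421-48871470, minus strand: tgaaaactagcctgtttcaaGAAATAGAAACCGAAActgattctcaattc
Gbp3, chr3:142559979-142560034, plus strand: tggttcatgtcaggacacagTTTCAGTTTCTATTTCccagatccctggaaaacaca
Ifit1 holds 2 separate matches, while those of Irgm1 and Gbp3 overlap. In Igtp the match ends 24 bases before the start, and a GAS match ends 36 bases before it.

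The ISRE letters stood in the windows of 13 of these 30 genes (43.3%), against 3.99% of the 27025 genes with a window. The GAS letters stood in 6 (20%, against 9.55% of all genes) and the antioxidant response element letters also in 6 (20%, against 14%). Members with the ISRE letters were B2m, Bst2, Cxcl10, Gbp2, Gbp3, Ifih1, Ifit1, Ifit3, Igtp, Irgm1, Isg15, Rsad2 and Stat2. The antioxidant response element letters lay in Cxcl10, Ifi44, Igtp, Irf7, Oasl2 and Rsad2. A match describes the letters of the window and shows no binding.

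One mouse stood apart from the rest and bears on every comparison with Nrf2-null vehicle. In Nrf2-null vehicle replicate 3, 25 of the 33 genes had their highest level of all 40 mice, against 4.74% of all genes, and 30 were the highest of its group. Igtp, which encodes an immunity-related GTPase, read 13.55 in this mouse and 9.68, 10.29 and 10.33 in the other 3, or 10.94-fold above their mean. It was followed by Gbp3 (9.98 against 7.19 to 7.82), Tap1 (9.41 against 6.77 to 7.19), Irgm1 (12.36 against 9.60 to 10.31) and Ifi47 (13.13 against 10.25 to 11.60). Stat2, Tap2 and Cxcl9 were the exceptions, each higher in another mouse of the group. This mouse was picked by its levels of these same genes. Leaving it out lowers the spread and the Nrf2-null vehicle mean of most of them. Results without it are therefore description, and the shares of all genes beside them are not a like comparison.

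**Figure D1:**
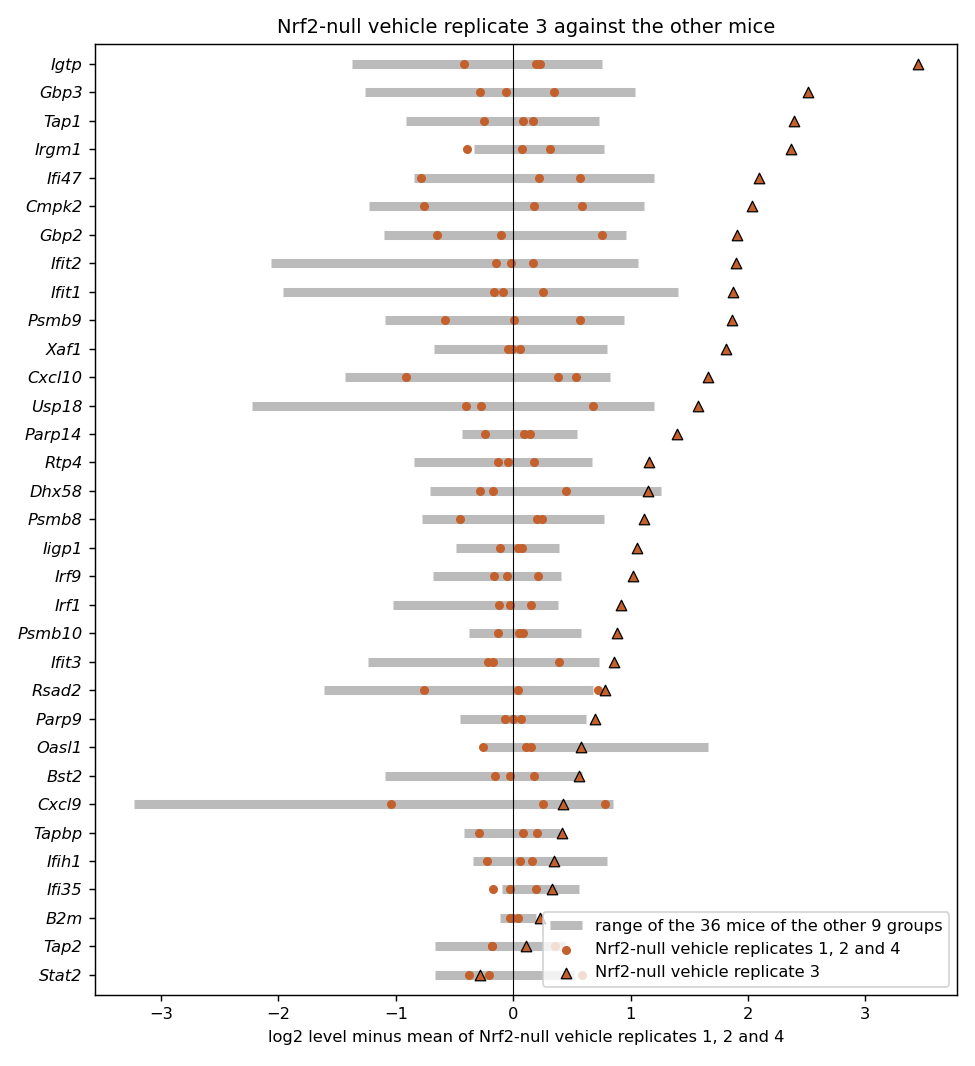
Each row is 1 gene and the horizontal axis is its log2 level minus the mean of Nrf2-null vehicle replicates 1, 2 and 4 (circles). Triangles mark replicate 3 and grey bars the range of the 36 mice of the other 9 groups. The triangle lies beyond both for 25 of 33 genes, farthest for Igtp at 3.45.

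Genes outside the list that read high in the same mouse were those of MHC class II, which presents peptides on professional antigen presenting cells. The class II genes measured, taken with Nlrc5, were 6, and all 6 were above the mean of the other 3 mice. Of these 6, 5 were the highest of 40, Nlrc5 included, and H2-DMa was not. H2-Aa, for one, read 13.10 against 10.17 to 11.72. The Kupffer cell markers averaged 9.36 there against 8.46 to 9.21, with 4 of 11 the highest of 40. The 3 T and NK cell markers measured averaged 5.25 against 4.72 to 5.92, the 3 B and plasma cell markers 5.45 against 4.77 to 5.39, and the hepatocyte markers 15.27 against 15.45 to 15.55. Of 27 other interferon-stimulated genes measured, 17 were the highest of 40 in this mouse. Their part in the result was not tested.

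By the same count within groups, Wt vehicle replicate 1 was the highest of its 4 mice for 27 of 33 genes (34.5% of all genes) and Nrf2-null D3T replicate 2 for 24 (20.8% of all genes). Nrf2-null D3T replicate 4 was the highest of 40 for 12.2% of all genes but for none of the 33. In Wt vehicle replicate 1 the B and plasma cell markers averaged 8.31 against 4.52 to 4.95 in its group. Ighm among them read 10.83 against 5.54 to 6.84, and the class II genes, taken with Nlrc5, averaged 8.74 against 7.48 to 7.56. In Nrf2-null D3T replicate 4 the Kupffer cell markers averaged 6.96 against 8.35 to 8.89. Calls that were lost without one of these mice are named beside the result.

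**Figure D2:**
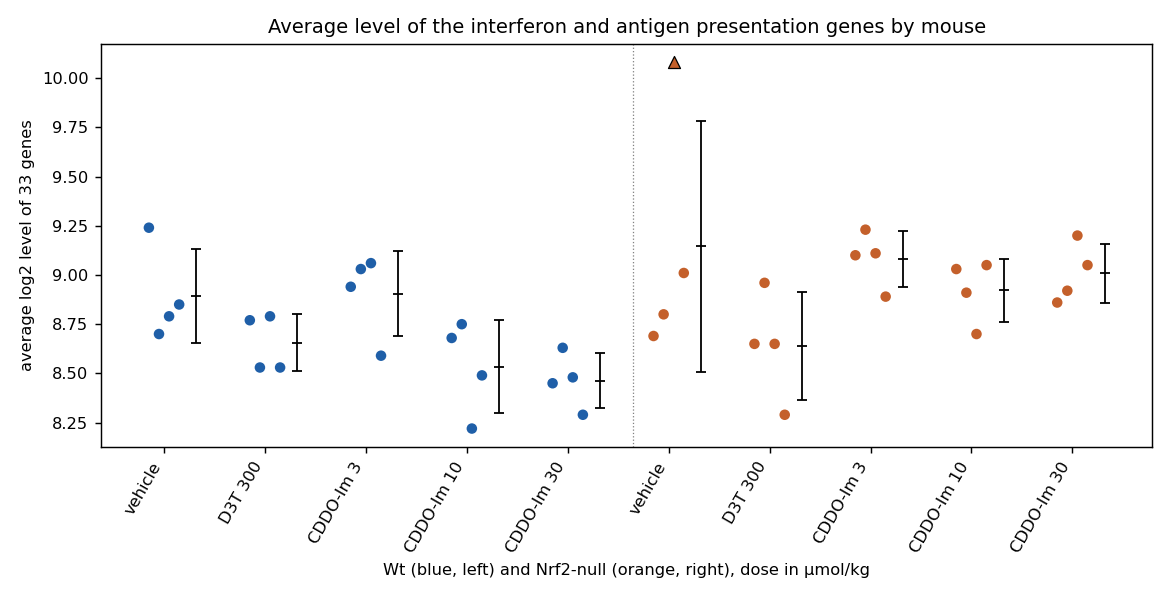
The vertical axis is the average log2 level of the 33 genes in 1 mouse, with the treatment on the horizontal axis. Each point is a mouse (4 a group), blue for Wt and orange for Nrf2-null, and bars are the mean ± SD. The triangle, Nrf2-null vehicle replicate 3, stands at 10.08, above the other 39 mice.

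The averages of the 33 genes give the outline of the results. Wt vehicle mice averaged 9.24, 8.70, 8.79 and 8.85 (mean 8.89 ± 0.24, SD, n = 4). Wt mice given D3T averaged 8.66 ± 0.14, and those given 3, 10 and 30 μmol/kg CDDO-Im 8.90 ± 0.21, 8.54 ± 0.24 and 8.46 ± 0.14. At 30 μmol/kg the highest mouse, 8.63, was below the lowest Wt vehicle mouse, 8.70, and at 10 μmol/kg the groups overlapped. The Nrf2-null groups averaged 9.15 ± 0.64 with vehicle, 8.64 ± 0.27 with D3T and 9.08 ± 0.14, 8.92 ± 0.16 and 9.01 ± 0.15 with rising doses of CDDO-Im. Within the Nrf2-null genotype, every mouse given CDDO-Im lay inside the range of the vehicle mice, 8.69 to 10.08, but the upper end is replicate 3. The other 3 vehicle mice ran from 8.69 to 9.01, and 7 of the 12 mice given CDDO-Im were above them.

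Against Wt vehicle, 30 μmol/kg CDDO-Im lowered 6 of the 33 genes and raised none. Ifit1 and Ifit2, whose proteins hold back the translation of viral RNA, fell together with Usp18, which removes the ubiquitin-like protein ISG15 from its targets and dampens the type I interferon receptor. Cxcl9, a chemokine that draws activated T cells, Rtp4, a chaperone of membrane receptors, and Parp9, a partner of ADP-ribosylation enzymes in antiviral defence, also fell. In this comparison 23.6% of all genes were called, and 20.8% of all genes were called lower, so 6 of 33 (18.2%) is no more than the share of all genes.

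Ifit1 read 7.77, 6.49, 6.85 and 7.03 in the Wt vehicle mice and 5.78, 5.68, 5.34 and 4.79 at 30 μmol/kg. The groups did not overlap, and the difference was -1.63 ± 0.38 (SE, limma adjusted p = 0.0024). Usp18 read 8.43, 7.48, 8.03 and 8.31 with vehicle and 6.45, 7.15, 6.57 and 6.15 at 30 μmol/kg. These groups were also separate, with a difference of -1.48 ± 0.36 (limma adjusted p = 0.0033). Ifit1 and Usp18 were below the threshold under every alternative processing tried.

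Ifit2 read 6.96, 5.94, 6.60 and 6.46 with vehicle and 5.20, 5.35, 5.67 and 4.46 at 30 μmol/kg, a difference of -1.32 ± 0.41 (limma adjusted p = 0.019). Cxcl9 read 10.14, 8.48, 8.80 and 9.04 with vehicle and 7.34, 7.65, 8.07 and 7.59 at 30 μmol/kg, a difference of -1.45 ± 0.48 (limma adjusted p = 0.026). In both, the highest treated mouse was below the lowest vehicle mouse. Wt vehicle replicate 1 was the highest of its group for each, and without it neither was called, nor was Ifit2 without replicate 4 at 30 μmol/kg or Cxcl9 without replicate 1, 2 or 4 at that dose. Parp9 read 10.38, 10.49, 10.48 and 10.31 with vehicle and 10.14, 10.11, 9.89 and 9.96 at 30 μmol/kg, a difference of -0.39 ± 0.13 (limma adjusted p = 0.026). Rtp4 lay between 9.62 and 10.21 with vehicle and between 9.02 and 9.41 at 30 μmol/kg, a difference of -0.62 ± 0.23 (limma adjusted p = 0.047). Parp9 was not called without Wt vehicle replicate 2 or 3 or without replicate 3 or 4 at 30 μmol/kg. Rtp4 was not called without Wt vehicle replicate 1, 2 or 4 or without any 1 of the 4 treated mice. For all 6 genes the treated and vehicle groups were separate.

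All 14 genes whose groups were separate at 30 μmol/kg were lower than vehicle, against 24.1% of all genes lower and 4.21% higher. The 8 that were not called are Gbp2, Gbp3, Ifi35, Igtp, Iigp1, Irf9, Irgm1 and Psmb9. The median difference over the 33 genes was -0.36, with 27 below 0. Over all genes the median was itself -0.16 at this dose, with 74% below 0. With each array centred on its median the members' median was -0.19, with 24 below 0, and Ifit1 and Usp18 were the 2 calls left. Bst2, which tethers budding viruses to the cell and also marks plasmacytoid dendritic cells, had the highest difference of the members at 0.32.

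**Figure D3:**
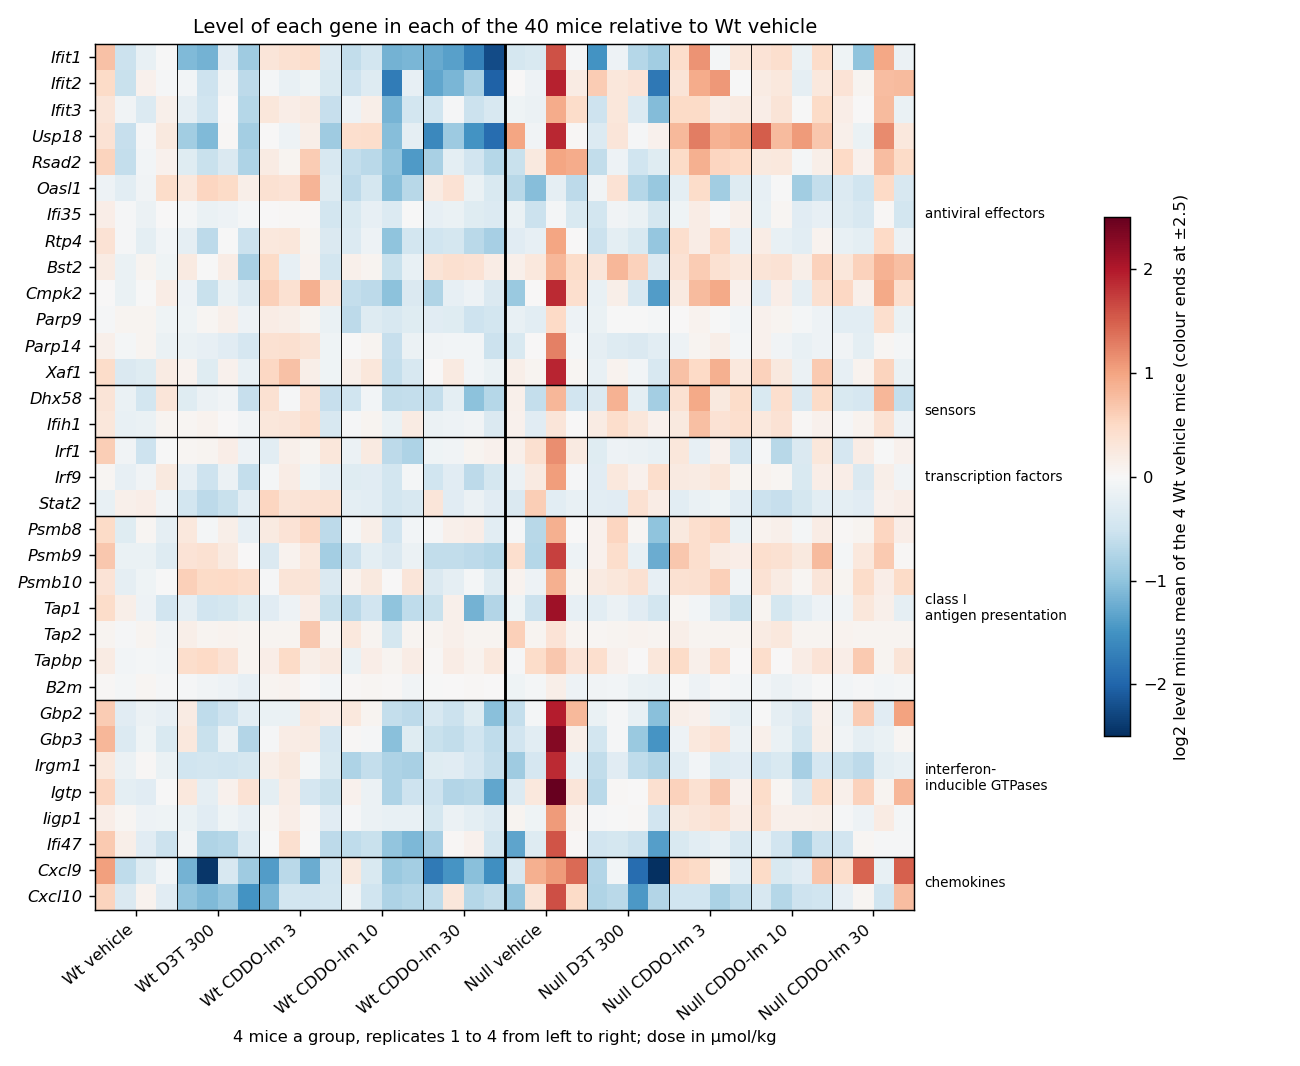
Rows are the 33 genes grouped by role and columns the 40 mice, 4 a group. Colour is the log2 level minus the mean of the 4 Wt vehicle mice, ending at ±2.5. Wt mice at 30 μmol/kg CDDO-Im are bluest for Ifit1, Ifit2, Usp18 and Cxcl9, and the third Nrf2-null vehicle column is red in nearly every row.

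By role, 5 of 13 antiviral effectors fell at 30 μmol/kg, against 20.8% of all genes called lower, with a median of -0.36 and a range of -1.63 to 0.32. None of the 6 interferon-inducible GTPases passed, though all 6 were below 0, with a median of -0.49 and Igtp lowest at -0.81 (limma adjusted p = 0.19). With Nrf2-null vehicle replicate 3 left out of the fit, Igtp, Irgm1 and Iigp1 passed. In all, 11 members were called lower without it, the others being Tap1, Irf9 and the same 6, against 25% of all genes called in that fit. None of the 7 genes of class I antigen presentation passed, with a median of -0.00, and neither did either RNA sensor, Dhx58 (-0.64) and Ifih1 (-0.18). Fitted without Wt vehicle replicate 1, the count of members called was 3, and the share of all genes in that fit is not given here.

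Markers of other cells moved in the same comparison. The neutrophil and monocyte genes S100a8 and S100a9 rose by 3.39 ± 0.76 (limma adjusted p = 0.0018) and 2.94 ± 0.71 (adjusted p = 0.0034). The average of the 4 markers of these cells measured was 7.18 to 8.11 at 30 μmol/kg and 5.52 to 6.84 with vehicle. That average includes S100a8 and S100a9, the only 2 of the 4 called, and the lowest difference among the 4 was -0.09. Marco, a scavenger receptor of Kupffer cells, rose by 3.49 ± 0.54 (limma adjusted p = 4.7e-05), while the average of 11 Kupffer cell markers was 8.65 to 9.01 against 8.30 to 9.05. That average includes Marco, the only 1 of the 11 called, and the median difference of the 11 was -0.01, with the lowest at -0.53. The endothelial cadherin Cdh5 fell by 0.52 ± 0.14 (limma adjusted p = 0.0082), and the hepatocyte genes Cps1 and Apoa1 fell by 0.22 and 0.15 (adjusted p = 0.0028 and 0.029, with Apoa1 at 0.086 without Wt vehicle replicate 1). Their part in the fall of the interferon genes was not tested.

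At 10 μmol/kg CDDO-Im, 2 of the 33 genes fell in Wt mice, against 17.5% of all genes called (12.4% lower). Rsad2, whose protein viperin makes a nucleotide that ends viral RNA synthesis, read 9.34, 8.18, 8.71 and 8.89 with vehicle and 8.19, 8.11, 7.80 and 7.37 at 10 μmol/kg. The highest treated mouse just reached the lowest vehicle mouse, and the difference was -0.91 ± 0.25 (limma adjusted p = 0.011). Parp9 read 9.77, 10.10, 10.01 and 10.11, below all 4 vehicle mice, a difference of -0.42 ± 0.13 (limma adjusted p = 0.022). Rsad2 was not called without Wt vehicle replicate 1 or without replicate 4 at 10 μmol/kg. Parp9 was not called with centred arrays, nor without Wt vehicle replicate 2 or 3 or replicate 1 at 10 μmol/kg. Marco was higher than vehicle at this dose too, by 1.96 ± 0.54 (limma adjusted p = 0.012), and its part in these differences was not tested.

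The other 31 genes did not pass, among them Ifit1 (-0.85), Ifi47 (-0.82), Irgm1 (-0.74), Oasl1 (-0.71), Ifit2 (-0.70), Tap1 (-0.70) and Cmpk2 (-0.66). Their limma adjusted p ran from 0.071 for Irgm1 to 0.25 for Ifit2. The median of the 33 was -0.34 and 29 were below 0, against a median of -0.08 and 62.3% below 0 over all genes. Groups were separate for 7 members, all lower (21.2%, against 15.5% of all genes lower and 7.42% higher). Irgm1, a GTPase of autophagy, read 9.72, 9.90, 9.73 and 9.68 at 10 μmol/kg and 10.77, 10.36, 10.53 and 10.33 with vehicle. Without Nrf2-null vehicle replicate 3 in the fit, its limma adjusted p went from 0.071 to 0.00042 at the same difference. Tap1, a subunit of the peptide pump of the endoplasmic reticulum, and Ifi47 were then called as well, for 5 genes in all, against 18.6% of all genes.

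At 3 μmol/kg none of the 33 genes was called by limma, against 0.474% of all genes. An unadjusted limma p was under 0.05 for 1 member (3.03%, against 10.5% of all genes). An exact Wilcoxon test had 3 under 0.05 before adjustment. The median was 0.03 with 14 below 0, and groups were separate for 1 gene lower and 2 higher (4.56% and 3.4% of all genes). Cxcl9 (-0.95 ± 0.48) and Cxcl10 (-0.64 ± 0.32) had the largest differences, both with a limma adjusted p of 0.48.

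**Figure D4:**
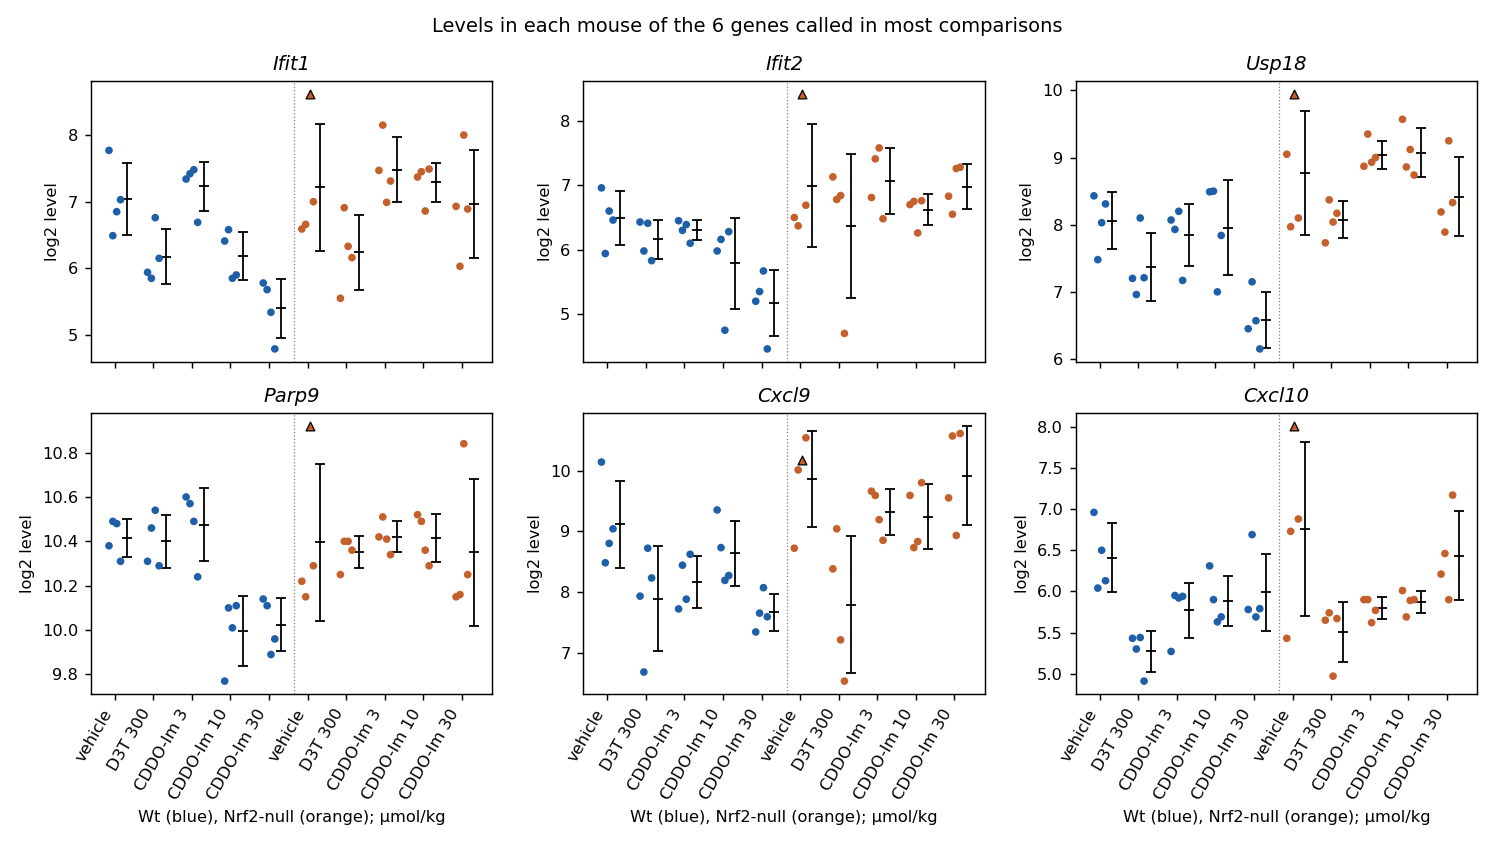
The vertical axis of each panel is the log2 level of 1 gene and the horizontal axis the treatment. Points are mice (4 a group), blue for Wt and orange for Nrf2-null, with the triangle marking Nrf2-null vehicle replicate 3 and bars the mean ± SD. Ifit1, Ifit2 and Usp18 are lowest in Wt mice at 30 μmol/kg CDDO-Im, Parp9 in Wt mice at 10 and 30 μmol/kg, and Cxcl10 in Wt mice given D3T.

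D3T lowered 1 of the 33 genes in Wt mice, the chemokine Cxcl10, which draws T cells through the receptor it shares with Cxcl9. It read 6.96, 6.04, 6.50 and 6.13 with vehicle and 5.43, 5.30, 5.44 and 4.91 with D3T. All 4 treated mice were below all 4 vehicle mice, and the difference was -1.14 ± 0.32 (limma adjusted p = 0.036). Of all genes 4.23% were called in this comparison (1.59% lower). The share of members, 1 of 33 (3.03%), lies between these, and 1 gene does not set the members apart from all genes. The call was lost when any 1 of the 4 D3T mice was left out, and also without Wt vehicle replicates 1 or 3.

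The remaining 7 of the 8 largest differences with D3T were Cxcl9 (-1.22), Ifit1 (-0.86), Usp18 (-0.70), Psmb10 (0.50), Rsad2 (-0.49), Stat2 (-0.48) and Irgm1 (-0.47), with limma adjusted p from 0.091 for Stat2 to 0.40 for Irgm1. Groups were separate for 4 genes lower and 2 higher, against 5.95% and 8.17% of all genes. The D3T mice were all below the vehicle mice for Irgm1 (10.00, 10.04, 10.00 and 10.05) and for Stat2, and all above for Psmb10, a catalytic subunit of the immunoproteasome. A weaker probe set of Stat2 did not fall, with a mean of 4.82 with D3T and 4.71 with vehicle. Without Nrf2-null vehicle replicate 3 in the fit, Irgm1 and Psmb10 were called too (limma adjusted p = 0.039 and 0.044). The median of the 33 genes was -0.27, with 24 below 0, against 0.00 for all genes.

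Ligands, receptors and Jak-STAT genes outside the list gave few calls in Wt mice. Over all genes, D3T lowered 1.59%, and the upper doses of CDDO-Im 12.4% and 20.8%. Of 10 receptor and Jak-STAT genes measured, Ptpn2, a phosphatase of this pathway, rose with D3T by 0.36 ± 0.11 (limma adjusted p = 0.047), and Jak2, a kinase of the interferon gamma receptor, fell by 0.47 ± 0.10 at 30 μmol/kg CDDO-Im (limma adjusted p = 0.0016). Of 8 interferon genes 1 was measured, Ifna2, low on the array, which rose by 0.56 ± 0.14 at 30 μmol/kg (limma adjusted p = 0.0042). Of 10 other sensors and adaptors measured, Tlr3, the endosomal sensor of double-stranded RNA, fell by 0.68 ± 0.15 at 10 μmol/kg and by 0.62 ± 0.15 at 30 μmol/kg (limma adjusted p = 0.0023 and 0.0038). At 30 μmol/kg Irf3 also fell by 0.28 ± 0.09 and Trim25, which activates RIG-I, by 0.42 ± 0.14 (limma adjusted p = 0.031 and 0.024). Without Wt vehicle replicate 1, Ptpn2, Irf3 and Trim25 were not called (limma adjusted p = 0.07, 0.12 and 0.053).

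Of 27 further interferon-stimulated genes measured, 3 fell at 10 μmol/kg CDDO-Im (12.4% of all genes did), none rose, and the 3 were Tor3a (-0.98 ± 0.26), Ifitm1 (-0.55 ± 0.17) and Pml (-0.53 ± 0.16), with limma adjusted p of 0.0078, 0.019 and 0.017. At 30 μmol/kg Ly6e rose by 0.73 ± 0.22 (limma adjusted p = 0.017) and Lgals9 fell by 0.65 ± 0.24 (adjusted p = 0.05, just under the threshold, and 0.14 without Wt vehicle replicate 1), while with D3T none of the 27 passed. Of 5 class I heavy chain genes measured, H2-D1 alone was called, higher by 0.45 ± 0.10 at 3 μmol/kg and by 0.36 ± 0.10 at 30 μmol/kg (limma adjusted p = 0.029 and 0.0084). Of 6 genes of peptide supply, 3 fell with D3T (1.59% of all genes did), the chaperones of the endoplasmic reticulum Pdia3 (-0.68 ± 0.16), Calr (-0.61 ± 0.16) and Canx (-0.28 ± 0.08), with limma adjusted p of 0.016, 0.02 and 0.048. Closely related heavy chain genes can share probes, so H2-D1 is uncertain.

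With all mice, none of the 7 members of class I presentation was called in any Wt group against vehicle. Without Nrf2-null vehicle replicate 3 in the fit, Psmb10 was called higher with D3T, and Tap1 lower at 10 μmol/kg (-0.70) and 30 μmol/kg CDDO-Im (-0.59), with limma adjusted p of 0.014 and 0.029. B2m, the light chain of every class I molecule, read 15.49, 15.41, 15.52 and 15.43 with Wt vehicle, 15.43, 15.38, 15.33 and 15.26 with D3T, and 15.45, 15.48, 15.50 and 15.47 at 30 μmol/kg CDDO-Im. Its difference at 30 μmol/kg was 0.02, with a 95% interval of -0.08 to 0.12. Psmb8, a catalytic subunit of the immunoproteasome, read 9.92, 9.14, 9.48 and 9.21 with vehicle and 9.40, 9.56, 9.60 and 9.18 at 30 μmol/kg, with an interval of -0.55 to 0.54 for the difference. Psmb9, its partner subunit, did separate the groups, at 8.31 to 8.41 against 8.71 to 9.70, but was not called (-0.66 ± 0.33, limma adjusted p = 0.15).

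Irf1, a transcription factor of the interferon gamma response, read 9.52, 8.80, 8.38 and 8.88 with Wt vehicle, 8.94, 8.97, 9.06 and 8.76 with D3T, and 8.78, 8.80, 8.96 and 9.01 at 30 μmol/kg CDDO-Im. The treated mice lay within the vehicle range in both, and the differences were 0.04 and -0.01. Irf9 and Stat2, transcription factors of the type I interferon response, were at -0.37 and -0.48 with D3T and at -0.47 and -0.10 at 30 μmol/kg, none called.

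Set directly against D3T at 300 μmol/kg, CDDO-Im at 10 μmol/kg differed for 2 members in Wt mice, against 18.7% of all genes. The doses differ between the compounds, a dithiolethione and a triterpenoid. Oasl1, a relative of the oligoadenylate synthetases, read 5.63, 5.84, 5.24 and 5.59 with CDDO-Im and 6.55, 6.82, 6.76 and 6.43 with D3T. The groups were separate, and the difference was -1.06 ± 0.28 (limma adjusted p = 0.0078), called under every alternative tried. Parp9 was also lower with CDDO-Im, by 10.00 against 10.40 in the group means (-0.41 ± 0.13, limma adjusted p = 0.026). It was not called with centred or quantile-normalized arrays, without an expression minimum, or without D3T replicate 2 or 3 or CDDO-Im replicate 1. Groups were separate for 6 genes lower and 1 higher, against 16.2% and 6.69% of all genes. Cxcl10 lay the other way, at 5.63 to 6.31 with CDDO-Im and 4.91 to 5.44 with D3T, with separate groups but no call (0.61 ± 0.32, limma adjusted p = 0.19). For Ifit1 both compounds gave a mean of 6.18, with a 95% interval for the difference of -0.76 to 0.78.

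Other genes of the pathway differed between these groups, against the same 18.7% of all genes. Of the 27 further interferon-stimulated genes 5 were called, Ifitm1 (-0.92), Tor3a (-0.87), Isg20 (-0.75) and Pml (-0.59) lower with CDDO-Im and Eif2ak2, the kinase PKR, higher (0.53), with limma adjusted p from 0.00036 to 0.019. Of the 10 sensors and adaptors, Tlr3 was lower (-1.04 ± 0.15, limma adjusted p = 2.9e-05), Ddx58, which encodes RIG-I, was lower (-0.44) and Tbk1 higher (0.25), with adjusted p of 0.013 and 0.0049. Ifnar2, a chain of the type I interferon receptor, was higher (0.30), Psme1, a proteasome activator subunit, lower (-0.30) and Calr higher (0.47), with limma adjusted p of 0.027, 0.032 and 0.033. Among marker genes, Cd68 of macrophages was lower (-1.19 ± 0.28, limma adjusted p = 0.0038) and Apoa1 of hepatocytes lower (-0.18, adjusted p = 0.017), and their part was not tested.

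Between the 2 higher doses of CDDO-Im, 1 member differed, against 19.5% of all genes. Usp18 read 8.49, 8.50, 7.0 and 7.84 at 10 μmol/kg and 6.45, 7.15, 6.57 and 6.15 at 30 μmol/kg. The groups overlapped through 1 mouse at 10 μmol/kg, and the difference was -1.38 ± 0.36 (limma adjusted p = 0.0064), called under every alternative tried. Usp18 at 10 μmol/kg was -0.11 from vehicle. Ifit1 was -0.85 from vehicle at 10 μmol/kg and -1.63 at 30 μmol/kg, with separate groups but no call between the doses (-0.78 ± 0.38, limma adjusted p = 0.15). Oasl1 ran the other way, from 5.24 to 5.84 at 10 μmol/kg and from 5.90 to 6.64 at 30 μmol/kg (0.71 ± 0.28, limma adjusted p = 0.068). Groups were separate for 4 genes lower and 3 higher at the top dose, against 16.5% and 7.32% of all genes. Outside the list, Pdia3 (0.61) and Ly6e (0.67) were higher at the top dose (limma adjusted p = 0.008 and 0.031). So were the marker genes S100a8 (3.51), S100a9 (2.59) and Marco (1.53), with adjusted p of 0.0015, 0.01 and 0.044, while Cps1 was lower (-0.17, adjusted p = 0.019). Their part was not tested. Both comparisons share the Wt mice at 10 μmol/kg, and all comparisons with vehicle in a genotype share the same 4 vehicle mice.

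Between vehicle-treated mice, the genotypes did not differ in any of the 33 genes by limma, against 10.8% of all genes. Unadjusted limma p were under 0.05 for 6 members (18.2%, against 25.4% of all genes), and none passed the exact Wilcoxon test. The median difference, Nrf2-null minus Wt, was 0.28, with Igtp (0.93 ± 0.44), Cxcl9 (0.75 ± 0.48) and Usp18 (0.71 ± 0.36) at the top and Oasl1 (-0.66 ± 0.28) at the bottom. Without Nrf2-null vehicle replicate 3 the median was -0.06. Irgm1 (-0.50) and Ifi35 (-0.37) were then called lower in Nrf2-null mice, with limma adjusted p of 0.026 and 0.048. In the genes around them, Ifngr1, a chain of the interferon gamma receptor, was higher in Nrf2-null mice by 0.59 ± 0.16 and Ptpn2 by 0.43 ± 0.11 (limma adjusted p = 0.014 and 0.0075). Both were also called without replicate 3. Herc6, an interferon-stimulated ubiquitin ligase gene, was higher by 0.84 ± 0.20 and Tbk1, the kinase of IRF3, by 0.27 ± 0.06 (limma adjusted p = 0.0071 and 0.0043, and 0.044 and 0.023 without replicate 3). Psme1 was lower in Nrf2-null mice (-0.39, limma adjusted p = 0.01, and 0.0036 without replicate 3). H2-D1 (0.37) and the endothelial marker Stab1 (0.64) were higher (limma adjusted p = 0.014 and 0.021) but not without replicate 3 (0.084 and 0.073), and Stab1 not without Wt vehicle replicate 1 (0.075).

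In Nrf2-null mice, D3T lowered both chemokines and no other member, 2 of 33 against 4.09% of all genes (1.83% lower). Cxcl9 read 8.72, 10.01, 10.18 and 10.54 with vehicle and 8.38, 9.04, 7.21 and 6.53 with D3T, overlapping only through the lowest vehicle mouse. The difference was -2.08 ± 0.48 (limma adjusted p = 0.011), and -1.97 without Nrf2-null vehicle replicate 3 (adjusted p = 0.035). The lowest value came from Nrf2-null D3T replicate 4, the mouse with low Kupffer cell markers, and the part of those cells was not tested. Cxcl9 was called without that mouse too. C1qa, a complement gene of Kupffer cells, fell by 1.03 ± 0.28 in the same comparison (limma adjusted p = 0.027), and the class II chaperone Cd74 was lower as well (-1.65 ± 0.45, adjusted p = 0.031). Neither passed without vehicle replicate 3 (adjusted p = 0.087 and 0.12) or without D3T replicate 4, where they were at -0.57 ± 0.21 and -1.21 ± 0.45 (adjusted p = 0.1 and 0.11). Gbp6, another GTPase (-2.04, limma adjusted p = 0.05, just under the threshold), Ifnar2 (-0.37, 0.023) and Tbk1 (-0.24, 0.018) were also lower. None of these 3 was called without vehicle replicate 3, nor was Gbp6 without D3T replicate 4 (adjusted p = 0.18).

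Cxcl10 read 5.43, 6.73, 8.01 and 6.88 with Nrf2-null vehicle and 5.65, 5.74, 4.97 and 5.67 with D3T. The groups overlapped, the difference was -1.26 ± 0.32 (limma adjusted p = 0.022), and without replicate 3 of the vehicle group it was -0.84 and not called, nor was it called without D3T replicate 3. Irf1 was the only member with separate groups (8.60 to 8.77 against 9.02 to 10.06), where 2.66% of all genes were lower. The median of the 33 genes was -0.61 with all mice and -0.14 without that replicate. Leaving out Nrf2-null vehicle replicate 1 instead, which had the lowest average of its group, gave 12 calls, all lower. Gbp3, Gbp2, Cmpk2, Rsad2 and Irgm1 were among them. That fit keeps replicate 3, and dropping the mouse lowest in these same genes raises the vehicle mean. The share of all genes called in it is not given here, so these 12 calls are description and not a test. In a fit to these 2 groups alone, neither chemokine was called.

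CDDO-Im changed none of the 33 genes in Nrf2-null mice by limma at 3, 10 or 30 μmol/kg, where 0.774%, 0.0722% and 0.175% of all genes were called. Unadjusted limma p were under 0.05 for 4, 4 and 1 members (12.1%, 12.1% and 3.03%), against 14.7%, 12.9% and 10.1% of all genes. The exact Wilcoxon test gave none at any dose. At 30 μmol/kg the members ranged from -0.54 for Igtp to 0.48 for Oasl1, with a median of -0.11, or 0.13 without vehicle replicate 3. Ifit1 read 6.93, 6.03, 8.0 and 6.89 and vehicle 6.59, 6.66, 8.62 and 7.0, a difference of -0.26 with a 95% interval of -1.03 to 0.51, or 0.21 without vehicle replicate 3. Usp18 read 8.19, 7.89, 9.25 and 8.33 and vehicle 9.05, 7.97, 9.95 and 8.10, with an interval of -1.08 to 0.38. Parp9 read 10.15, 10.16, 10.84 and 10.25, where vehicle replicates 1, 2 and 4 ran from 10.15 to 10.29. Of the marker genes, Ccl5, a chemokine of T and NK cells, rose by 1.75 ± 0.30 at 30 μmol/kg (limma adjusted p = 0.0028, and 0.018 without replicate 3).

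Whether the response to CDDO-Im or D3T differed between genotypes was tested as an interaction, the response in Nrf2-null minus that in Wt mice. With all 40 mice none of the 33 genes was called by limma for D3T, 10 or 30 μmol/kg CDDO-Im, where 0.0722%, 5.4% and 11.9% of all genes were. Unadjusted limma p were under 0.05 for 4, 3 and 4 members (12.1%, 9.09% and 12.1%). Over all genes the shares were 13.2%, 22.1% and 28.2%, so these counts do not set the members apart. At 30 μmol/kg the largest differences were Cxcl9 (1.5 ± 0.67), Ifit1 (1.38 ± 0.54), Ifit2 (1.31 ± 0.58) and Usp18 (1.13 ± 0.51), with limma adjusted p of 0.14, 0.087, 0.13 and 0.14.

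Leaving out Nrf2-null vehicle replicate 3 brought 5 members past the threshold at 30 μmol/kg. Ifit1 was then at 1.85 (limma adjusted p = 0.016), Ifit2 at 1.78 (0.033), Usp18 at 1.53 (0.039), Igtp at 1.14 (0.041) and Parp9 at 0.52 (0.035), against 8.29% of all genes called in that fit. In the same fit these 5 genes differed from Nrf2-null vehicle by 0.21, 0.46, 0.04, 0.33 and 0.13 at 30 μmol/kg, none called, and all 5 were called lower in Wt mice. At 10 μmol/kg 2 were called without it, Irgm1 at 0.71 (limma adjusted p = 0.036) and Parp9 at 0.62 (0.022), against 4.73% of all genes. For D3T none was called with or without it. Because that mouse was picked by these same genes, the calls made without it are description and not a test. In the same comparison at 30 μmol/kg with all mice, the response of Marco was lower in Nrf2-null mice (-3.20 ± 0.77, limma adjusted p = 0.0074). That of Ighm was higher by 4.26 ± 1.28 (adjusted p = 0.028), with Wt vehicle replicate 1 at the top of the 40 mice for that gene. Without that mouse Ighm was at 3.11 ± 1.13 and not called (limma adjusted p = 0.075), while Marco was (-3.45 ± 0.80, adjusted p = 0.0073). Ccl5 was higher by 1.64 ± 0.42 (limma adjusted p = 0.01, and 0.024 without Nrf2-null vehicle replicate 3). The responses of Jak2 (0.47), Cdh5 (0.65), Alb (0.21) and Cps1 (0.26) were higher and those of Tapbpl (-0.60) and Ifna2 (-0.64) lower, with limma adjusted p from 0.022 to 0.04, and none of these 6 was called without Nrf2-null vehicle replicate 3. At 10 μmol/kg the same held for Alb (0.22, limma adjusted p = 0.049). Jak2, Cdh5 and Alb were not called without Wt vehicle replicate 1 either (limma adjusted p from 0.064 to 0.084). The part of Kupffer, B, T and NK cells in the difference was not tested.

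**Figure D5:**
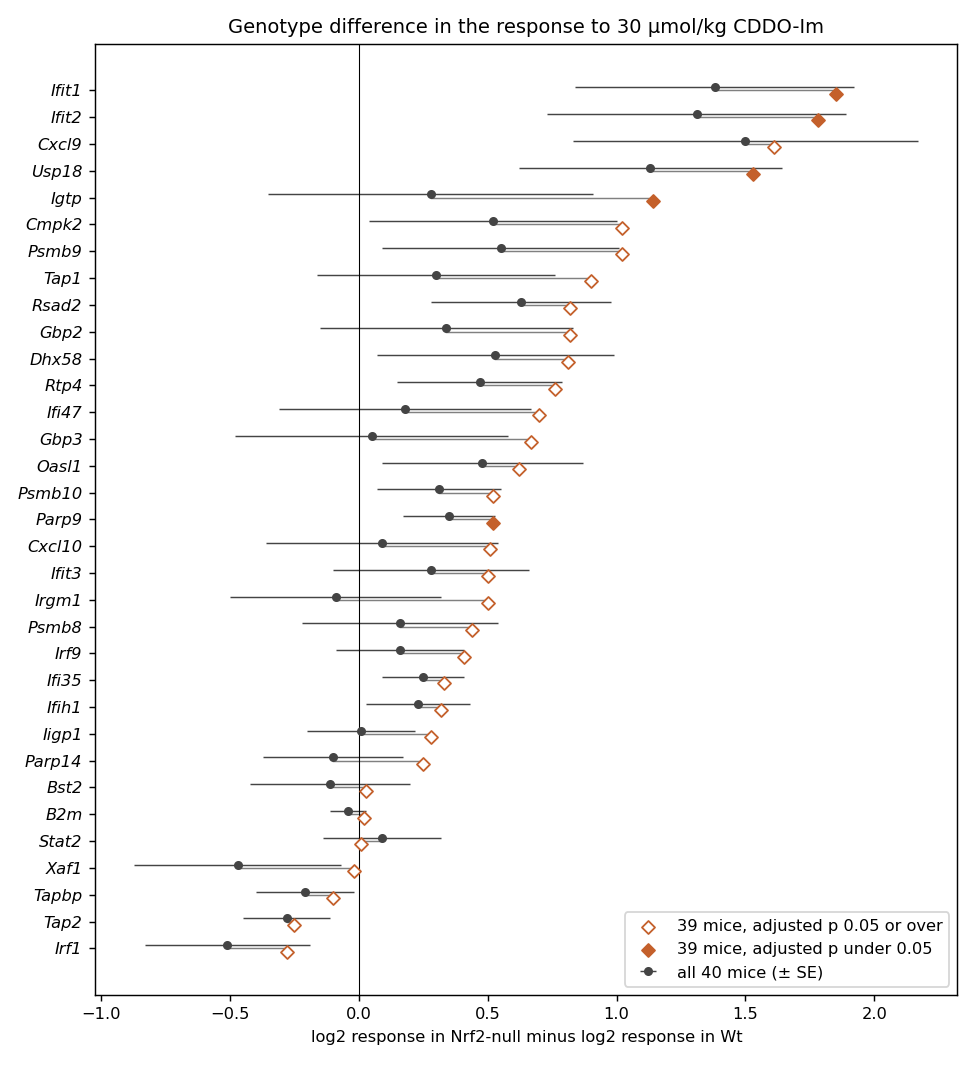
Each row is 1 gene and the horizontal axis is its log2 response to 30 μmol/kg CDDO-Im in Nrf2-null minus that in Wt mice. Circles with SE bars use all 40 mice and diamonds the 39 without Nrf2-null vehicle replicate 3, filled where the adjusted p was under 0.05. Ifit1 moves from 1.38 to 1.85 and 5 diamonds are filled.

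Mice of the same group varied together in these genes. After each group's mean was taken away, the 528 pairs of members had a median correlation of 0.51 over the 40 mice, and 487 pairs were above 0. The first component held 52.1% of their variance. Without Nrf2-null vehicle replicate 3 the median was 0.36, with 461 pairs above 0 and 39.2% in the first component. The closest pairs without that mouse were Rtp4 and Xaf1 (0.86), Ifi35 and Ifih1 (0.86) and Psmb8 and Psmb9 (0.84). Psmb8 and Psmb9 both encode subunits of the immunoproteasome. Against the mean of the others, Rtp4 and Gbp3 stood at 0.85 each, Cxcl9 at 0.46, Cxcl10 at 0.33 and Stat2 at -0.12. These correlations describe the mice, which share arrays and RNA across genes.

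For 7 members more than 1 probe set was kept. A further probe set of Cxcl9 averaged 4.94 ± 0.33 (SD, n = 4) in Wt vehicle mice and 4.38 ± 0.08 at 30 μmol/kg, and one of Gbp2 5.15 ± 0.68 and 4.35 ± 0.28. The further probe sets of Rsad2 averaged 7.21 ± 0.64 and 5.79 ± 0.61 with vehicle and 6.72 ± 0.39 and 5.42 ± 0.28 at 30 μmol/kg. Stat2's weaker probe set averaged 4.71 ± 0.20 and 4.72 ± 0.25, where the one used gave a difference of -0.10. With D3T the 2 probe sets of Stat2 disagreed. The weaker one averaged 4.82 ± 0.12, while the one used averaged 6.37 ± 0.17 against 6.84 ± 0.18 with Wt vehicle.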

How the data were processed

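The authors hybridized liver RNA of each mouse to 1 array and deposited log2 expression values normalized by GCRMA. Which version was used, and over which arrays, is not stated in the material read here. All 40 columns matched their labels. Of 45037 probe sets, 34945 were annotated to 1 gene symbol, 932 to several and 9160 to none in the platform table. Of the former, 34741 matched RefSeq (GRCm38.p6), and no symbol changed. Probe sets reaching log2 4 on at least 3 arrays of a group were kept (18935), and the one with the highest mean stood for each of 9695 genes. Medians of the arrays over kept probe sets lay between 7.5 and 7.86. The number of arrays limits the precision.

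One linear model over the 10 groups was fitted with limma 3.58.1 (statmod 1.5.0, R 4.3.3), with eBayes, trend and robust settings, and Benjamini-Hochberg adjustment at 0.05. Genotype differences in response were contrasts of that fit. The script was tested on simulated data. The methods' exact Wilcoxon test, which cannot go below p = 0.029 with 4 against 4, was an alternative, as were array centring, quantile normalization, array weights, no expression minimum or a minimum of log2 6, fits to the groups compared alone, a replicate block and leaving out each mouse. The fit without Nrf2-null vehicle replicate 3 and that to the 5 Wt groups were added after seeing the data. That mouse was picked by its levels of the members. Tables were handled with Python 3.11.15, NumPy 2.4.6, pandas 2.3.3 and SciPy 1.17.1, and figures drawn with Matplotlib 3.10.9.

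The members, roles and gene lists were chosen with earlier results of these data known. In each comparison every called member was named, up to 8, or else the 8 with the largest change. Values of every mouse were given for the 6 members called most often and for Psmb8, B2m, Cxcl10 and Irf1. Isg15 and Irf7 were to be given as well but were not measured. Called genes of the other lists were named, up to 4 a list in each comparison, and 1 more where a list had 5. Other members were named after their values were seen. Mice are separate animals, so the errors cover the spread between animals.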

Additional observations from a re-analysis of the deposited data

Results flagged for a closer look

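In 32 of 330 combinations of a gene and a group (9.7%), 1 mouse lay far from the other 3 by Dixon's ratio of the gap to the range (above its 95% critical value for 4 samples). That value is passed in about 1 in 20 independent normal samples. The genes share mice and vary together, so 9.7% cannot be set against it as an excess. Values below are log2 levels, with doses of CDDO-Im. Nrf2-null vehicle replicate 3 had Ifit2 at 8.42 (others 6.37 to 6.69), Tap1 at 9.41 (others 6.77 to 7.19), Igtp at 13.55 (others 9.68 to 10.33), Iigp1 at 15.36 (others 14.19 to 14.38) and Xaf1 at 9.30 (others 7.44 to 7.54). Nrf2-null D3T replicate 4 had Ifit2 at 4.70 (others 6.78 to 7.13), Gbp2 at 5.86 (others 6.72 to 6.87), Iigp1 at 13.82 (others 14.27 to 14.31) and Ifi47 at 10.19 (others 11.03 to 11.12). Nrf2-null 10 μmol/kg replicate 3 had Ifit2 at 6.26 (others 6.70 to 6.76). Wt 3 μmol/kg replicate 4 had Ifit3 at 7.48 (others 8.23 to 8.35), Ifi35 at 11.54 (others 12.01 to 12.03), Ifih1 at 9.74 (others 10.41 to 10.55) and Parp14 at 8.79 (others 9.22 to 9.29). Nrf2-null 30 μmol/kg replicate 3 had Oasl1 at 6.79 (others 5.78 to 5.94), Rtp4 at 10.36 (others 9.62 to 9.71), Dhx58 at 6.66 (others 5.23 to 5.44) and Parp9 at 10.84 (others 10.15 to 10.25). Wt vehicle replicate 1 had Psmb9 at 9.70 (others 8.71 to 8.86), Tapbp at 10.45 (others 10.17 to 10.20) and Gbp2 at 7.53 (others 6.63 to 6.76). Wt D3T replicate 1 had Tap2 at 6.03 (others 5.96 to 5.97). Wt 3 μmol/kg replicate 3 had Tap2 at 6.57 (others 5.95 to 5.96). Wt 30 μmol/kg replicate 2 had Tap2 at 6.02 (others 5.95 to 5.96) and Cxcl10 at 6.69 (others 5.69 to 5.79). Nrf2-null 3 μmol/kg replicate 1 had Tap2 at 6.04 (others 5.95 to 5.96). In each group where Tap2 was flagged the other mice read 5.95 to 5.97, so the ratio flags even a small gap. Wt 10 μmol/kg replicate 4 had B2m at 15.38 (others 15.49 to 15.51). Nrf2-null 10 μmol/kg replicate 1 had Iigp1 at 14.70 (others 14.41 to 14.44). Nrf2-null 30 μmol/kg replicate 1 had Ifi47 at 11.09 (others 11.53 to 11.62). Wt 30 μmol/kg replicate 4 had Parp14 at 8.35 (others 8.80 to 8.83). Wt 3 μmol/kg replicate 1 had Cxcl10 at 5.27 (others 5.92 to 5.95). Nrf2-null D3T replicate 3 had Cxcl10 at 4.97 (others 5.65 to 5.74). Of the 16 mice, Nrf2-null vehicle replicate 3 held 5 of these values.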

How the results depend on the processing

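Counts of members called were recomputed 285 times over the 14 comparisons, and 221 stayed within 1.5 times the count reported. The 14 named changes kept their direction in all 262 recomputations, and 48 of these lost the call. Ifit1 and Usp18 at 30 μmol/kg CDDO-Im in Wt mice, Oasl1 between CDDO-Im and D3T, and Usp18 between the upper doses kept theirs throughout. For D3T in Wt mice (1 call), the count was 0 with no expression minimum, 4 with array weights, 3 in the groups alone, 5 in the Wt groups, 6 by the exact Wilcoxon test and 3 without Nrf2-null vehicle replicate 3. At 3 μmol/kg (0) it was 3 by Wilcoxon. At 10 μmol/kg (2) it was 1 centred, 6 with array weights, 6 in the groups alone, 8 in the Wt groups, 7 by Wilcoxon and 5 without that mouse. At 30 μmol/kg (6) it was 2 centred, 3 with quantile normalization, 13 in the groups alone, 12 in the Wt groups, 14 by Wilcoxon and 11 without that mouse. In Nrf2-null mice D3T (2) gave 0 in the groups alone and 1 by Wilcoxon, or 1 without that mouse, and 3 μmol/kg (0) gave 2 with array weights. The vehicle genotypes (0) gave 2 with array weights and 2 without that mouse. CDDO-Im against D3T (2) gave 1 with quantile normalization, 1 with no minimum, 6 in the groups alone, 7 by Wilcoxon and 3 without that mouse. The upper doses (1) gave 2 centred, 2 with quantile normalization, 3 with array weights, 8 in the groups alone, 5 in the Wt groups, 7 by Wilcoxon and 2 without that mouse. The genotype difference (0) gave 2 with array weights at 30 μmol/kg and, without that mouse, 2 at 10 and 5 at 30 μmol/kg. Calls over all genes move with the setting too. At 30 μmol/kg in Wt mice, centring changed them from 272 higher and 2019 lower to 637 higher and 544 lower. Shares of all genes are not given beside these counts or those below, so the counts alone do not set the members apart. The cause of these shifts was not tested, beyond fewer or more mice entering each fit.

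Leaving out 1 mouse at a time, counts in Wt mice ran from 0 to 3 for D3T, 0 to 0, 1 to 5 and 2 to 11 for the doses of CDDO-Im, 1 to 3 for CDDO-Im against D3T and 1 to 2 between upper doses. In Nrf2-null mice they ran from 1 to 12 for D3T and from 0 to 1, 0 to 3 and 0 to 0 for the doses. They ran from 0 to 3 between vehicle groups and, for genotype differences, 0 to 0 for D3T, 0 to 2 at 10 and 0 to 5 at 30 μmol/kg. Mice with the same replicate number did not deviate together (median r 0.004, against -0.002 for other pairs), and with a replicate block the count was unchanged in every comparison, as 6 at 30 μmol/kg in Wt mice.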
